A study of Homo sapiens with 6 samples.

Results

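Polyamine metabolism was described here through 10 genes that make, break down or regulate the polyamines: ODC1, AMD1, SRM, SMS, SAT1, OAZ1, OAZ2, AZIN1, SMOX and PAOX. Its members were every probe of the array annotated to 1 of these genes, which gave 17 probes among 47231, and the 10 genes stand among 20046 named on the array. The cells were SKOV3, an established human ovarian carcinoma line, treated for 48 h with an siRNA against the long non-coding RNA NRCP (siNRCP, 3 samples) or with control siRNA (sicontrol, 3 samples). Total RNA, 500 ng per sample, was labelled with biotin and read on Illumina BeadArrays, 1 array per sample. The comparison asked which transcripts of the pathway differ once NRCP is targeted. 0 probes carried the name NRCP, so the knockdown itself was not analysed here.

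Polyamines (putrescine, spermidine and spermine) are small, positively charged molecules that bind nucleic acids and are needed for growth, and their synthesis is often raised in tumour cells. Ornithine decarboxylase, encoded by ODC1, makes putrescine from ornithine, and the synthases encoded by SRM and SMS add aminopropyl groups to form spermidine and then spermine, using a donor made by the AMD1 enzyme. Antizymes (OAZ1, OAZ2) bind ornithine decarboxylase and send it to the proteasome, and the antizyme inhibitor AZIN1 takes antizyme away from it. In the other direction SAT1 acetylates spermidine and spermine, PAOX oxidises the acetylated forms, and SMOX oxidises spermine directly back to spermidine with release of hydrogen peroxide.

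ODC1 and SRM are textbook targets of the transcription factor MYC, which binds the E-box CACGTG, so the E-boxes near their starts are shown. The letters CACGTG, which read the same on both strands, were searched in RefSeq promoter windows (GRCh38.p14) of 250 bases before to 50 bases after a gene start. Windows were found for 7 of the 10 genes (10 windows), not for AZIN1, SMOX and PAOX. Capitals mark the E-box in the stretches below, written 5′ to 3′ on the minus strand.
ODC1, chr2:10448000-10448058: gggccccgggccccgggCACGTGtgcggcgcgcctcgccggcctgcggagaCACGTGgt
SRM, chr1:11060195-11060234: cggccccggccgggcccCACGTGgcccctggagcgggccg
The ODC1 E-boxes began 29 bases before and 5 bases after the more downstream of its annotated starts, and the window of its other start held none. The SRM E-box began 199 bases before the start. The windows of AMD1, SMS, SAT1, OAZ1 and OAZ2 held none, and of all 35116 windows 7.26% held at least 1. By gene, 2 of the 7 members with a window held at least 1, against 8.77% of 27305 genes. Of the members with an E-box, ODC1 was higher in siNRCP and passed the test, and SRM read lower without passing it with all arrays. The brightest MYC probe, named after its value was seen, read 11.25, 10.78 and 10.99 log2 on siNRCP arrays 1 to 3, against 11.34, 11.00 and 11.07 on sicontrol arrays 1 to 3. These overlapped, with a difference of -0.13 ± 0.15 log2 (SE; limma adjusted p = 0.784), and of -0.25 ± 0.13 without siNRCP array 1 (0.215). The arrays read RNA only, so MYC protein and its binding were not measured. A part of MYC in the ODC1 and SRM differences was not tested.

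Values below are log2 normalized bead intensities. Differences are siNRCP minus sicontrol on that scale with their SE from limma (n = 3 arrays per group), and a change means an adjusted p under 0.05 in limma over all 47231 probes. A probe was above background on an array when it exceeded 95% of the 437 olfactory receptor probes there. Array means of the raw intensity were 373 to 554 in siNRCP and 555 to 563 in sicontrol, and 39.8% to 42.7% of probes in siNRCP and 42.9% to 44.0% in sicontrol lay above background. siNRCP array 1 stood apart from its group: over 20026 probes above background on at least 3 arrays, it correlated at 0.937 and 0.947 with siNRCP arrays 2 and 3, which correlated at 0.992 with each other, and at 0.973 to 0.980 with the sicontrol arrays. With 0 probes named NRCP, the label of this array could not be checked against its target, and results are given with and without it. This array was singled out from these same values, and the fits without it rest on siNRCP arrays 2 and 3 alone. Where it lies nearer to sicontrol, leaving it out widens a difference by construction, so the p-values without it are a description. An adjusted p also depends on the whole fit, and without this array 21.1% of all probes passed. On ODC1 and the brightest SMOX probe the adjusted p fell though the SE rose, from 0.11 to 0.12 and from 0.09 to 0.11. A smaller adjusted p without this array is therefore not by itself stronger evidence. Of the epithelial and ovarian carcinoma markers 8 of 9 lay above background on all 6 arrays, with WT1 on 0, and the summed raw intensity of the 9 was 17946 to 26155 in siNRCP and 22685 to 26029 in sicontrol. Of the 9 measured markers of leukocytes, endothelial and erythroid cells, 6 were above background on 0 arrays and 0 on all. The labels do not say whether replicates came from separate cultures, so the spread behind each p-value is that between these arrays and may be technical. In bulk RNA, fewer cells with a transcript and less of it per cell cannot be told apart.

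The transcripts of the entry enzyme (ODC1) and of the spermine oxidase (SMOX) read higher in siNRCP cells, as did AZIN1 among the regulators. The antizyme transcripts did not pass. ODC1, SMOX and, on its dimmest probe only, AZIN1 rose, by 0.56 to 0.82 log2 on the probes that passed, while 0 member probes fell. By the brightest probe 2 of the 10 genes passed, both upward, against 2.79% of named genes in either direction. Of the 17 probes, 15 lay above background on at least 3 arrays. In all, 4 of the 17 passed upward, against 0.739% of all probes passing upward, 0.915% downward and 1.65% in either direction (3.9% of the 20026 probes above background). On 10 of the 17 probes the groups were fully separate, with siNRCP higher on 6 and lower on 4, against 17.8% of all probes (9.15% higher and 8.68% lower). Of the 15 above background, siNRCP was higher on 6 and lower on 3, against 14% and 13.4% of all such probes (27.3% together). By the brightest probe siNRCP was higher on 3 of the 10 genes and lower on 2, against 2292 and 2173 of the 20046 named genes. Over the 10 genes by their brightest probe the median difference was -0.09 log2, beside 0.01 over all 20046 named genes. Without siNRCP array 1, 6 of the 17 probes rose and 5 fell, in a fit where 21.1% of all probes passed (10.6% upward and 10.5% downward, and 48.4% of those above background). Without siNRCP array 2 only 1 passed, and without siNRCP array 3 or any sicontrol array 0 did, with 9 to 10 at an unadjusted limma p under 0.05. With all arrays, 6 member probes were higher and 4 lower at that unadjusted level, against 3422 and 3083 of all 47231 probes. Among the 20026 probes above background, 3042 were higher and 2740 lower. The unadjusted share of all probes in the fits without 1 array is not given here, so the 9 to 10 are a description.

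**Figure D1:**
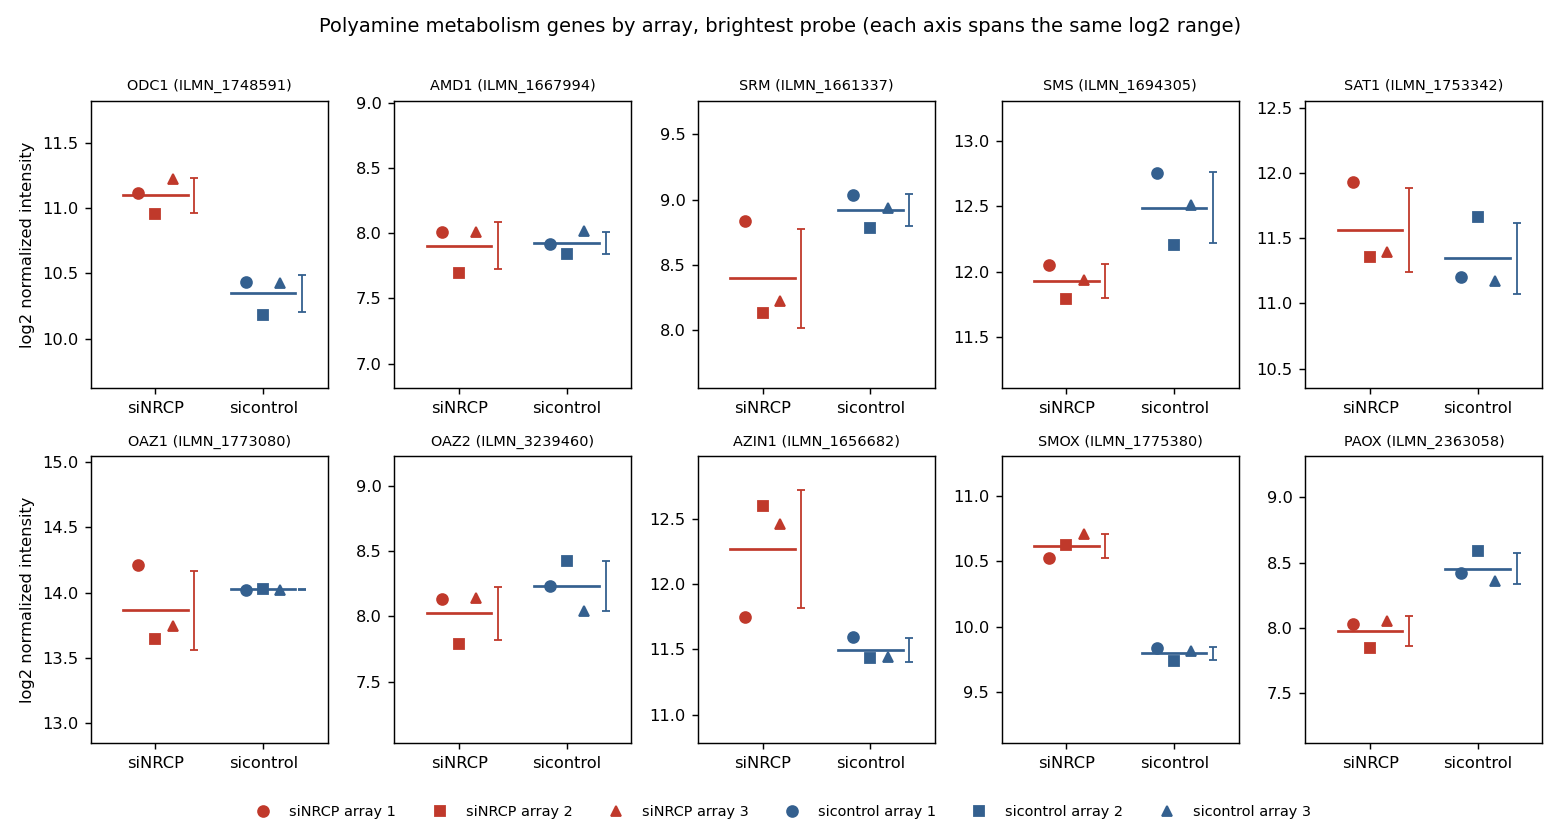
Log2 normalized intensity of the 10 genes on each array, brightest probe per gene, with siNRCP in red and sicontrol in blue. Symbols mark the array number, horizontal lines the group mean, and bars beside them ± 1 SD (n = 3). Every panel spans the same log2 range. ODC1, AZIN1 and SMOX lie higher on all siNRCP arrays than on any sicontrol array, and SMS and PAOX lie lower.

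Among the genes of synthesis, ODC1 read 11.12, 10.96 and 11.22 on siNRCP arrays 1 to 3, against 10.43, 10.18 and 10.43 on sicontrol arrays 1 to 3. All siNRCP arrays lay above all sicontrol arrays, and array 1 lay with the other siNRCP arrays. ODC1 rose by 0.75 ± 0.11 log2 (1.68-fold; limma adjusted p = 0.0271), and by 0.74 ± 0.12 without siNRCP array 1 (0.000283). Before normalization the groups overlapped, at 2473, 1355 and 2313 raw intensity units in siNRCP against 1652, 1266 and 1539 in sicontrol, and siNRCP array 2 had the lowest mean intensity of all 6 arrays. ODC1 did not pass without siNRCP array 2 (0.83, adjusted p = 0.0629) or 3 (0.70, 0.122), or without sicontrol array 1, 2 or 3 (0.80, 0.66 and 0.79, with 0.121, 0.140 and 0.151). Its adjusted p ranged from 0.000283 to 0.437 over 15 alternatives, in all of which it was higher in siNRCP.

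AMD1, whose enzyme decarboxylates S-adenosylmethionine to supply the aminopropyl donor, did not differ detectably. It read 8.01, 7.69 and 8.01 in siNRCP, against 7.91, 7.84 and 8.02 in sicontrol. The groups overlapped, with a difference of -0.02 ± 0.12 log2 (95% interval -0.29 to 0.25; limma adjusted p = 0.967) and -0.07 ± 0.12 without siNRCP array 1 (0.809), and the sign turned to 0.09 without siNRCP array 2 and to 0.02 without sicontrol array 3.

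The synthase genes SRM and SMS read lower in siNRCP but did not pass. SRM, the spermidine synthase gene, read 8.83, 8.13 and 8.22 in siNRCP, against 9.03, 8.79 and 8.94 in sicontrol. siNRCP array 1 lay inside the sicontrol range and arrays 2 and 3 below it. The difference was -0.52 ± 0.19 log2 (limma adjusted p = 0.267), and without siNRCP array 1 SRM fell by 0.74 ± 0.11 log2 (0.000142, within a range of 0.000142 to 0.608 over 15 alternatives). SMS, the spermine synthase gene, read 12.05, 11.79 and 11.94 in siNRCP on its brighter probe (ILMN_1694305), against 12.75, 12.21 and 12.51 in sicontrol. Its other probe (ILMN_2225318) read 11.72, 11.38 and 11.56 in siNRCP, against 12.38, 12.04 and 12.31 in sicontrol. On both SMS probes every siNRCP array lay below every sicontrol array. The differences were -0.56 ± 0.15 and -0.69 ± 0.13 log2 (limma adjusted p = 0.142 and 0.0534). Without siNRCP array 1 both passed, at -0.62 ± 0.14 and -0.77 ± 0.12 (0.00335 and 0.0002), and the dimmer probe also passed under cyclic loess (-0.70, 0.0337), with adjusted p over the alternatives of 0.00335 to 0.458 and 0.0002 to 0.286.

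Within each siNRCP array ODC1 was set against the synthase genes. On siNRCP array 1 SRM lay within the sicontrol spread (-0.09 log2 from the sicontrol mean), so the gap to ODC1 there was that of ODC1. On siNRCP arrays 1 to 3 the difference of ODC1 from its sicontrol mean exceeded that of SRM by 0.86, 1.40 and 1.57 log2, against -0.03, -0.03 and 0.06 on sicontrol arrays 1 to 3. For ODC1 against SMS (brighter probe) these were 1.21, 1.31 and 1.43 on siNRCP arrays, against -0.18, 0.12 and 0.06 on sicontrol arrays. The groups did not overlap on either. These pairs, and that of SMOX and PAOX, were chosen after their values were seen and are given as a description. An exact permutation test of 3 against 3 arrays cannot give a two-sided p under 0.1, so none serves as support here.

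Of the regulators of ornithine decarboxylase, AZIN1 was higher in siNRCP on all its probes. AZIN1 encodes a protein related to ornithine decarboxylase that has no enzyme activity and binds antizyme more tightly. Its brightest probe (ILMN_1656682) read 11.75, 12.60 and 12.46 in siNRCP, against 11.60, 11.44 and 11.44 in sicontrol. The next (ILMN_2327994) read 11.33, 12.13 and 12.06 in siNRCP, against 11.00, 10.86 and 10.86 in sicontrol. The dimmest (ILMN_1704550), still above background on all arrays, read 7.19, 7.31 and 7.28 in siNRCP, against 6.60, 6.78 and 6.71 in sicontrol. No siNRCP array overlapped sicontrol on any of the 3 probes, but on the 2 bright ones siNRCP array 1 lay much closer to sicontrol than arrays 2 and 3 did.

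The AZIN1 probe that passed was the dimmest, which rose by 0.56 ± 0.09 log2 (1.47-fold; limma adjusted p = 0.0340). Before normalization it read 202, 166 and 204 raw intensity units in siNRCP, against 153, 166 and 163 in sicontrol. On that scale siNRCP array 2 was level with sicontrol array 2, and the ratio of group means was 1.19. Without background correction this probe still passed, with a smaller difference of 0.40 log2 (limma adjusted p = 0.0330). The size of its rise therefore depended on the background correction. The bright probes differed by 0.78 ± 0.21 and 0.93 ± 0.21 log2 and did not pass (0.148 and 0.0863). Their SD was 0.45 and 0.44 log2 in siNRCP, against 0.09 and 0.08 in sicontrol. Without siNRCP array 1 all 3 passed, rising by 1.03 ± 0.11, 1.17 ± 0.11 and 0.59 ± 0.11 log2 from the brightest to the dimmest (5.72e-06, 1.63e-06 and 0.000695; ranges over the alternatives 5.72e-06 to 0.474, 1.63e-06 to 0.367 and 0.000695 to 0.200). The dimmest did not pass without siNRCP array 2 or 3 (0.117 and 0.147) or sicontrol array 1, 2 or 3 (0.161, 0.133 and 0.200), with differences of 0.50 to 0.60 log2.

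The antizyme genes did not pass with all arrays. OAZ1, the major antizyme gene, read 14.21, 13.64 and 13.75 in siNRCP, against 14.02, 14.03 and 14.02 in sicontrol. siNRCP array 1 lay above all sicontrol arrays and arrays 2 and 3 below them, so the direction differed within the group. The difference was -0.16 ± 0.15 log2 (limma adjusted p = 0.736), and OAZ1 fell by 0.34 ± 0.11 without siNRCP array 1 (0.0324, within a range of 0.0324 to 0.957 over the alternatives). OAZ2, a second antizyme gene, read 8.13, 7.79 and 8.15 in siNRCP, against 8.23, 8.42 and 8.04 in sicontrol. Its groups overlapped, with a difference of -0.21 ± 0.14 log2 (95% interval -0.54 to 0.12; limma adjusted p = 0.596), and of -0.26 ± 0.14 without siNRCP array 1 (0.230).

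**Figure D2:**
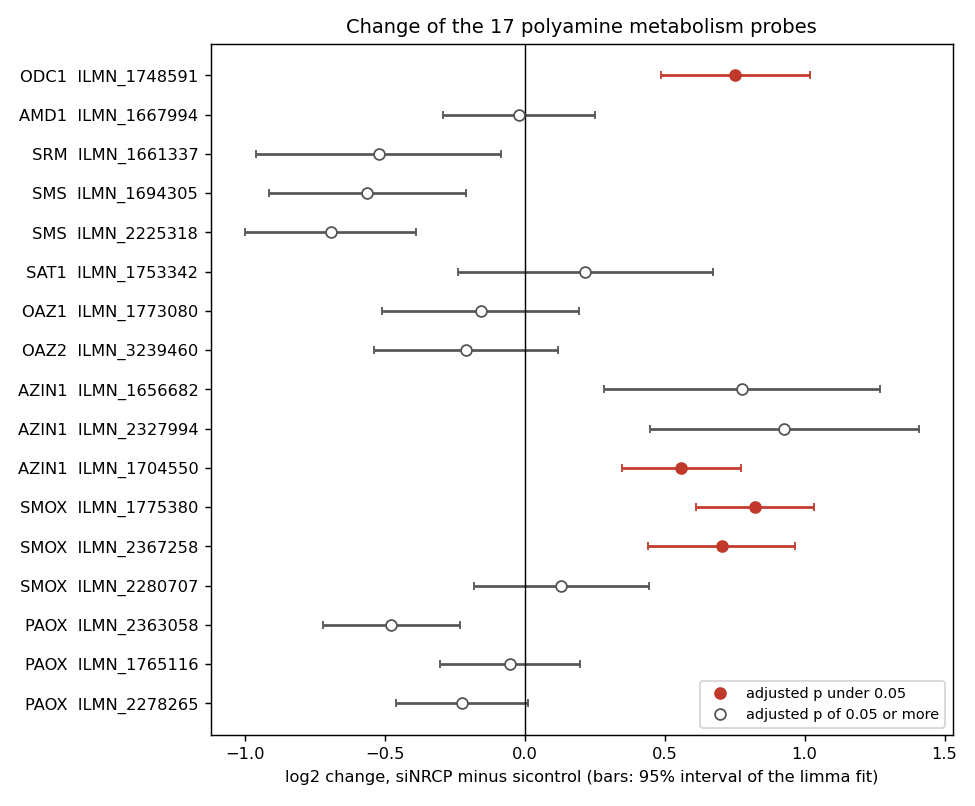
Difference in log2 normalized intensity, siNRCP minus sicontrol, for each of the 17 probes, with the 95% interval of the limma fit (n = 3 arrays per group). Filled red points have an adjusted p under 0.05. The 4 filled points belong to ODC1, AZIN1 and SMOX and lie between 0.56 and 0.82, while SRM, SMS and the brightest PAOX probe lie at -0.48 to -0.69 with open points.

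On the side of breakdown, SMOX rose, while PAOX read lower on its brightest probe without passing. SMOX, the spermine oxidase gene, read 10.52, 10.62 and 10.71 in siNRCP on its brightest probe (ILMN_1775380), against 9.83, 9.74 and 9.81 in sicontrol. A second probe (ILMN_2367258) read 9.26, 9.37 and 9.56 in siNRCP, against 8.81, 8.68 and 8.58 in sicontrol. On both, all siNRCP arrays lay above all sicontrol arrays after normalization. In raw intensity both overlapped, with siNRCP array 2 at 1097 and 501, below sicontrol array 1 at 1111 and 571. SMOX rose by 0.82 ± 0.09 log2 on the first (1.77-fold; limma adjusted p = 0.0111) and by 0.70 ± 0.11 on the second (1.63-fold; 0.0326), and without siNRCP array 1 by 0.86 ± 0.11 and 0.77 ± 0.12 (2.09e-05 and 0.000117).

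The first SMOX probe was the only member probe to pass without siNRCP array 2 (0.82, adjusted p = 0.0480), and it did not pass without siNRCP array 3 (0.78, 0.0618) or sicontrol array 1, 2 or 3 (0.84, 0.79 and 0.83, with 0.0779, 0.0866 and 0.106). The second did not pass without siNRCP array 2 or 3 (0.107 and 0.123) or sicontrol array 1, 2 or 3 (0.121, 0.179 and 0.203). Over 15 alternatives the adjusted p ranged from 2.09e-05 to 0.208 on the first probe and from 0.000117 to 0.344 on the second. The remaining SMOX probe (ILMN_2280707) lay above background on 1 siNRCP and 0 sicontrol arrays, so it gives no level for either group.

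PAOX, whose peroxisomal enzyme oxidises acetylated spermine and spermidine, read 8.03, 7.84 and 8.05 in siNRCP on its brightest probe (ILMN_2363058), against 8.42, 8.58 and 8.36 in sicontrol. Every siNRCP array lay below every sicontrol array. The difference of -0.48 ± 0.11 log2 did not pass (limma adjusted p = 0.0851), and without siNRCP array 1 PAOX fell by 0.50 ± 0.12 (0.00478, within a range of 0.00478 to 0.331 over the alternatives). The probe ILMN_1765116, near background, read 6.49, 6.51 and 6.58 in siNRCP, against 6.41, 6.74 and 6.59 in sicontrol, which overlapped. The probe ILMN_2278265 was above background on 0 siNRCP and 2 sicontrol arrays and gives no fold. Within arrays, the difference of SMOX from its sicontrol mean exceeded that of PAOX by 1.15, 1.44 and 1.31 log2 on siNRCP arrays 1 to 3, against 0.08, -0.19 and 0.11 on sicontrol arrays 1 to 3, given as a description.

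SAT1, the acetyltransferase that starts polyamine export and breakdown, varied within both groups. It read 11.93, 11.35 and 11.40 in siNRCP, against 11.20, 11.66 and 11.17 in sicontrol. siNRCP array 1 and sicontrol array 2 stood above the other arrays of their groups, and the groups overlapped. The difference was 0.22 ± 0.20 log2 (95% interval -0.24 to 0.67; limma adjusted p = 0.718), 0.03 without siNRCP array 1 (0.933) and -0.040 under median scaling (0.980, within a range of 0.562 to 0.980 over the alternatives).

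**Figure D3:**
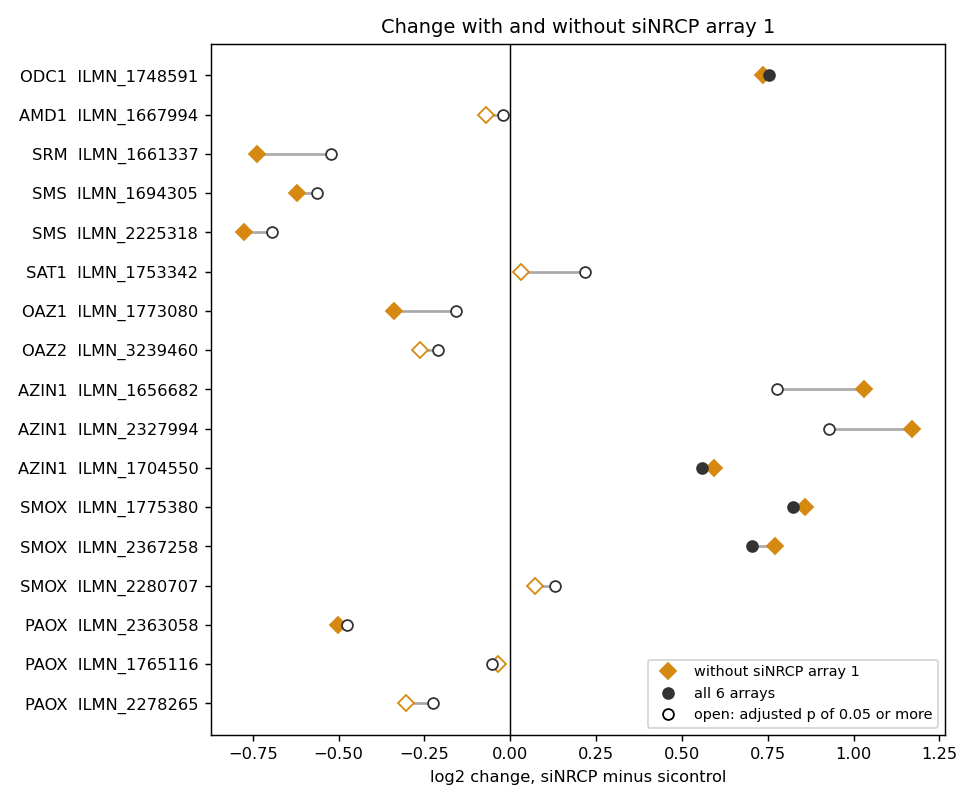
Difference in log2 normalized intensity, siNRCP minus sicontrol, for each of the 17 probes with all 6 arrays (circles) and without siNRCP array 1 (diamonds). Filled symbols have an adjusted p under 0.05. ODC1, the dim AZIN1 probe and the SMOX probes hardly move, the bright AZIN1 probes move to 1.03 and 1.17, and SRM moves to -0.74.

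siNRCP array 1 set itself apart unevenly over the members. It differed from the mean of siNRCP arrays 2 and 3 by 0.65 log2 on SRM, 0.56 on SAT1 and 0.52 on OAZ1, and by -0.78 and -0.76 on the bright AZIN1 probes. On ODC1 it differed by 0.03 and on the bright SMOX probes by -0.14 and -0.21. The genomic length of genes moved with this axis: across 11549 named genes above background, gene length correlated with siNRCP arrays 2 and 3 minus array 1 at a Spearman rho of 0.42 and with siNRCP minus sicontrol at 0.21, given as a description since genes share arrays and are not replicates. The lengths of the members (RefSeq) were 3038 bases for SAT1, 4003 for OAZ1, 5430 for SRM, 8360 for ODC1, 12433 for PAOX, 15708 for OAZ2, 37899 for AZIN1, 38900 for SMOX, 54129 for SMS and 81097 for AMD1. AMD1 and SMS, the longest, read higher on siNRCP array 1 than the mean of arrays 2 and 3, against the direction of that relation. The gap was 0.15 log2 on AMD1, and 0.19 and 0.26 on the SMS probes. On AMD1 it came from array 2 (7.69), as arrays 1 and 3 both read 8.01. The part of gene length in the members' differences was not tested. Median scaling in place of quantile normalization put the median of all probes above background at -0.13 log2, and there ODC1 (0.50), SMOX (0.57 and 0.48) and the dim AZIN1 probe (0.45) stayed higher in siNRCP but did not pass (limma adjusted p = 0.437, 0.208, 0.344 and 0.125).

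Few of the genes around the pathway passed with all arrays, and those fell. Of 51 listed genes of precursor supply, methionine salvage, hypusine formation, transport, oxidation and regulation, 49 were measured, 35 of them above background on at least 3 arrays. 0 rose and 2 fell, against 2.79% of named genes passing in either direction. Of the 20046 named genes, 256 passed upward and 303 downward, and 11557 lay above background. So small a count does not set the list apart from all genes. The median difference was -0.07 log2 beside 0.01 over all named genes. At an unadjusted limma p under 0.05, 4 were higher and 11 lower, where 20.5% of all named genes passed (11% higher and 9.52% lower). Without siNRCP array 1, 6 rose and 14 fell, in a fit where 31.3% of named genes passed (3420 upward and 2862 downward). Leaving out any other array gave 0 or 1.

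The genes that fell were SLC18B1 and ALDH9A1. SLC18B1, a vesicular transporter of spermine and spermidine, read 8.50, 8.52 and 8.62 in siNRCP, against 9.38, 9.67 and 9.61 in sicontrol. ALDH9A1, an aldehyde dehydrogenase that turns the aldehyde formed from putrescine into GABA, read 11.73, 11.38 and 11.68 in siNRCP, against 12.26, 12.29 and 12.23 in sicontrol. In both the groups were well apart. SLC18B1 fell by 1.01 ± 0.11 log2 (limma adjusted p = 0.00976) and ALDH9A1 by 0.66 ± 0.11 (0.0381), and without siNRCP array 1 by 0.98 ± 0.12 and 0.73 ± 0.12 (1.48e-05 and 0.000192). SLC18B1 passed without siNRCP array 1 and without siNRCP array 2, and not without siNRCP array 3 (0.0553) or sicontrol array 1, 2 or 3 (0.0642, 0.0782 and 0.104), and ALDH9A1 passed without siNRCP array 1 and not without any other (0.0869 to 0.217). Over 15 alternatives the adjusted p ranged from 1.48e-05 to 0.134 for SLC18B1 and from 0.000192 to 0.226 for ALDH9A1.

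In the remaining groups the gene with the largest difference did not pass with all arrays. SLC7A1, a plasma membrane transporter of arginine and ornithine, read 11.05, 12.19 and 11.69 in siNRCP, against 10.85, 10.71 and 10.71 in sicontrol (0.89 ± 0.26 log2, limma adjusted p = 0.167). SAT2, a paralog of SAT1, read 8.38, 7.04 and 7.26 in siNRCP, against 8.24, 8.73 and 8.46 in sicontrol (-0.92 ± 0.33, 0.270). On both, siNRCP array 1 lay nearer to sicontrol than arrays 2 and 3 did, and without it SLC7A1 rose by 1.18 ± 0.14 and SAT2 fell by 1.32 ± 0.14 (9.87e-06 and 3.75e-06; ranges over the alternatives 9.87e-06 to 0.505 and 3.75e-06 to 0.640). DHPS, which starts the spermidine-dependent hypusine modification of the translation factor eIF5A, differed by -0.62 ± 0.16 (0.127), MTR, the methionine synthase gene, by -0.52 ± 0.15 (0.166), and PMF1, a polyamine-modulated transcription cofactor, by -0.50 ± 0.23 (0.412). Without siNRCP array 1 these read -0.77, -0.36 and -0.79 and passed (0.000114, 0.0298 and 5.87e-05; the highest over the alternatives were 0.436, 0.465 and 0.758). Dimmer probes of EIF5A2 and CAV1, named after their values were seen, fell by 0.58 ± 0.10 and 1.08 ± 0.10 (0.0440 and 0.00755), while their brightest probes read -0.26 ± 0.22 and -0.49 ± 0.16 (0.690 and 0.232). Without siNRCP array 1 the dimmer probes fell by 0.64 ± 0.11 and 1.11 ± 0.11 (0.000488 and 3.31e-06), and the brightest read -0.035 ± 0.14 and -0.33 ± 0.12 (0.928 and 0.0720).

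**Figure D4:**
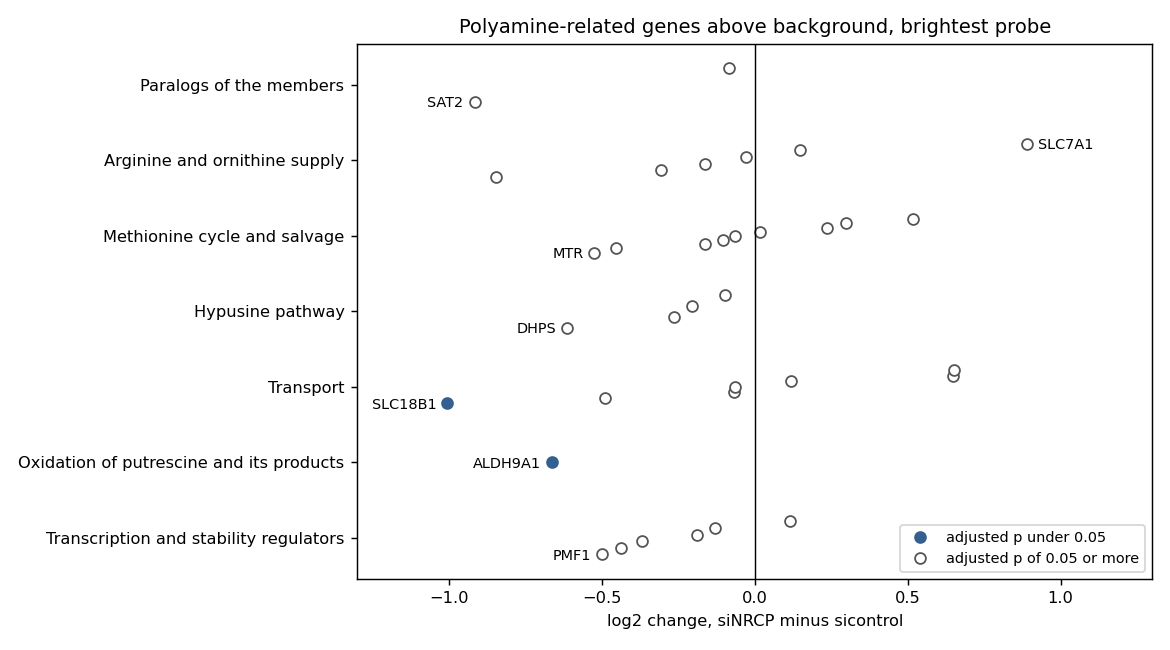
Difference in log2 normalized intensity, siNRCP minus sicontrol, of the 35 polyamine-related genes above background, by role, brightest probe per gene (n = 3 arrays per group). Filled points have an adjusted p under 0.05, and the named points are the genes given in the text by rule. SLC18B1 at -1.01 and ALDH9A1 at -0.66 are the filled points, and SLC7A1 at 0.89 is the highest open point.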

How the data were processed

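The deposited intensity table holds bead intensity per probe and array, exported by the authors from BeadStudio per the submitters' processing notes, which name no version. The deposited series matrix holds the authors' log2 values, which share 1 distribution on all arrays (median 7.01) and lie within 0.0835 of the quantile normalized log2 intensities. No genome build applies to the intensities. Slide and scan information was not used here.

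Intensities were corrected with normexp (offset 50), quantile normalized and put on the log2 scale, and all 47231 probes were fitted in limma 3.58.1 (R 4.3.3; lmFit, eBayes, no covariate) with Benjamini-Hochberg adjustment at 0.05. Symbols came from the platform annotation and 30074 probes matched RefSeq by Entrez identifier. The table carries no detection p-values, so background was set at the 95th percentile of olfactory receptor probes and not used in the main test. The fit was tested on simulated data. The number of arrays limits the precision.

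The members and lists were chosen with earlier results of these data known. All member probes were named, and of the related list the genes that passed and the largest difference per role among probes above background; any other gene is marked where it was picked from its values. Alternatives were no background correction, offset 16, median scaling, cyclic loess, the series matrix, a block on the replicate number, eBayes with trend and robust options, weights per array, a background filter, the mean of a gene's probes and leaving out each array.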

Additional observations from a re-analysis of the deposited data

How the results depend on the processing

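The 4 member probes that passed were higher in siNRCP under all 15 alternatives, and fewer passed under most of them. The count of member probes that passed (4) was 1 with offset 16, 0 under median scaling, 0 with trend and robust options and 11 with array weights, and 0 to 11 when 1 array was left out (0 without siNRCP array 3 or any sicontrol array, 1 without siNRCP array 2, 11 without siNRCP array 1). At an unadjusted limma p under 0.05 every setting held at least 9 of the 17 probes, which belong to only 10 genes. That level was common: with all arrays 3422 of 47231 probes were higher and 3083 lower. By the brightest probe 3 of the 10 genes were higher and 3 lower there, where 20.5% of named genes passed in either direction. The 9 are therefore a description. The count of related genes (2) was 1 with offset 16, median scaling, trend and robust options or the background filter, 17 with array weights, 4 with the mean of a gene's probes, and 0 to 20 with 1 array left out. The count of all probes (781, 349 higher, 432 lower) was 254 under median scaling (43 higher, 211 lower), 468 with trend and robust options, 8162 with array weights and 10 to 9955 with 1 array left out. The signs that turned were AMD1 (-0.074 to 0.086 with 1 array left out), SAT1 (-0.040 under median scaling) and the PAOX probe ILMN_1765116 (-0.14 to 0.025 with 1 array left out). The cause was not tested. With the replicate block 0 member probes, 0 related genes and 0 of all probes passed (10, 10 and 4893 at an unadjusted limma p under 0.05). Deviations of same-numbered arrays from their group means correlated at -0.64, -0.43 and -0.20, and those of differently numbered arrays at -0.53 to 0.63. Deviations within a group cancel out, which ties these values together, so they cannot show whether the cultures were paired. Dim probes near background limit SMOX and PAOX to their brighter probes.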

Other observations

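Several genes that feed or carry polyamines stood further from sicontrol on siNRCP arrays 2 and 3 than on array 1, and are given here as values chosen after they were seen. ASS1, an enzyme of arginine synthesis, read 9.81 to 10.40 log2 on the siNRCP arrays, against 10.74 to 11.16 on the sicontrol arrays, with all siNRCP arrays lower (-0.85 ± 0.18 log2, limma adjusted p = 0.0708, and -0.998 ± 0.13 without siNRCP array 1, 3.28e-05). ATP13A2, a lysosomal polyamine exporter, read 8.76, 10.20 and 10.02 in siNRCP, against 9.45, 8.88 and 8.69 in sicontrol, and GPC1, a heparan sulfate proteoglycan linked to polyamine uptake, read 7.57, 8.37 and 8.33 in siNRCP, against 7.64, 7.41 and 7.28 in sicontrol. MTAP, which recycles the methylthioadenosine left by the synthases, read 8.51, 9.44 and 9.20 in siNRCP, against 8.59, 8.45 and 8.55 in sicontrol. On ATP13A2, GPC1 and MTAP siNRCP array 1 lay within the sicontrol range and arrays 2 and 3 above it, and these genes did not pass with all arrays (0.65 ± 0.38, 0.65 ± 0.22 and 0.52 ± 0.22 log2; limma adjusted p = 0.532, 0.245 and 0.363). In the fit without siNRCP array 1, where 31.3% of named genes passed, they rose by 1.09 ± 0.17, 0.91 ± 0.12 and 0.78 ± 0.12 log2 (0.000139, 4.03e-05 and 8.71e-05).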
